A study of Homo sapiens with 21 samples.

Results

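PancVB is a cell line of pancreatic adenocarcinoma, and it was compared by RNA sequencing with the parental lung adenocarcinoma lines HCC4006 and HCC827. The comparison rested on 4 of the 21 libraries of the series, chosen by their cell line labels: 1 library of PancVB, and 3 lung libraries, namely replicate 2 of HCC4006P1, HCC4006P2 and HCC827P. All are labelled as sensitive, with no drug. The lung lines carry activating EGFR mutations and are the starting lines for EGFR inhibitor resistance, and PancVB is the starting line for resistance to 5-fluorouracil. HCC4006P1 and HCC4006P2 are 2 stocks of a single line, so that the lung side holds 2 lines, and the labels call the lung lines established and PancVB derived in vitro. Replicate 1 of HCC4006P1 was left out because its counts end on chromosome 7 near position 30562759 of GRCh37, and the genes past that point held 18.1% of the counts of replicate 2. With 1 library of PancVB, organ of origin, cell line and library cannot be told apart, and the spread between replicates of PancVB is unknown. The labels give a stranded mRNA kit for these libraries, and their processing notes name Bowtie and TopHat, the mappers that the study's methods pair with that kit. In cultures measured in bulk, fewer cells of a type and less RNA per cell cannot be told apart.

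The PancVB library held 21723626 counts on genes and the lung libraries 13608332 to 19498932. Levels are given as CPM, the counts of a gene scaled to the library's total on genes, and differences as log2(CPM + 1) of PancVB minus that of a lung library, on which the differences of weakly expressed genes come out too small. A gene with 3 counts, taken as the smallest number detected, had 0.138 CPM in PancVB and 0.154 to 0.220 CPM in the lung libraries, which covers counting error only. Over the 18010 genes with enough counts to be tested, the median difference from the lung mean was 0.07.

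Epithelial cells are held together by E-cadherin and P-cadherin at adherens junctions, by claudins and occludin at tight junctions and by desmosomes anchored to keratin filaments. In the epithelial-to-mesenchymal transition (EMT), repressors such as ZEB1 and SNAI2 silence junction genes, cadherin use shifts towards N-cadherin, and the intermediate filament vimentin (VIM) is gained. Carcinoma lines often sit between both states, and keep in addition traces of the organ they came from in their transcription factors and secreted proteins.

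PancVB stood out from the lung lines mainly by near-absent E- and P-cadherin and lower CLDN4 and CLDN7, beside KRT7, KRT8 and KRT18 at similar levels. ZEB1, TCF4, N-cadherin and the collagen VI chains COL6A1 and COL6A2 were higher. Other claudins and collagens went the other way: CLDN2 was higher, and the collagen IV chains COL4A1 and COL4A2 were lower. Further higher genes were under 1 CPM in every lung library, such as GFRA1 and CCND2, or had no count there, such as FLI1, ADAMTS12 and GATA4. A gene was counted as higher when PancVB lay at least 4-fold, that is 2 on the log2(CPM + 1) scale, above the highest lung library, and as lower when it lay at least 4-fold below the lowest. By this rule 224 genes were higher, which is 1.24% of the genes tested, and 238 were lower, which is 1.32%. Of these, 203 and 226 were protein-coding. Without HCC827P 556 genes were lower and without HCC4006P1 replicate 2 400, while 316 to 326 were higher when any 1 lung library was left out. Without a size limit, 5978 genes (33.2%) lay above every lung library and 4148 (23%) below.

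These counts are sizes and not tests. In the quasi-likelihood test of edgeR, 0 of 18010 genes (0%) had an adjusted p under 0.05, the smallest adjusted p being 0.107, whereas 1366 genes (7.58%) had an unadjusted p under 0.05. Without HCC827P edgeR called 13 genes. DESeq2 called 144 genes higher (0.8%) and 587 lower (3.26%) on the same libraries. Of the 462 genes past 4-fold, 440 had an unadjusted edgeR p under 0.05 and 380 were called by DESeq2. Just inside the limit, SIRPB1 differed by 2.01 and SRPX2 by -2.01 from the nearest lung library. Just outside it, C22orf39 differed by 1.99 and BMP2 by -1.99.

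**Figure D1:**
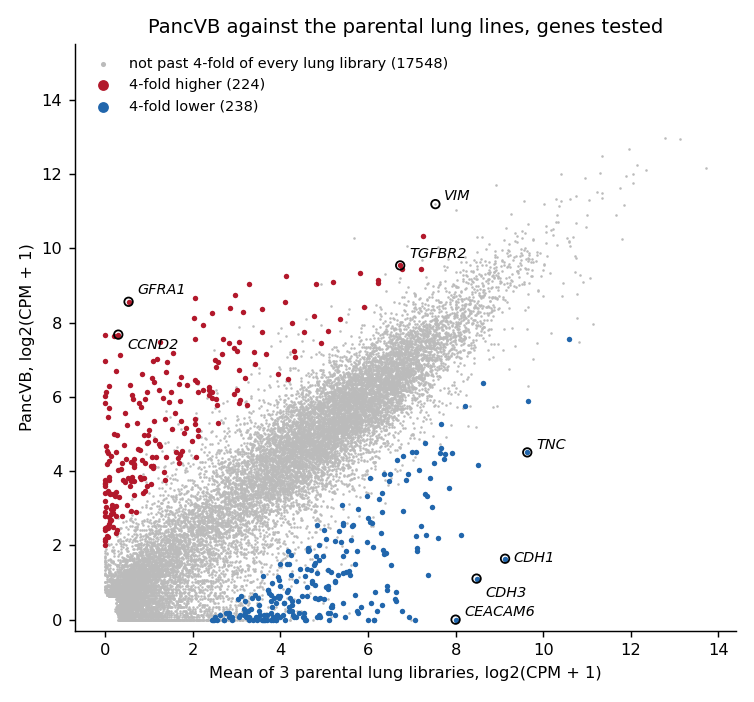
PancVB against the mean of the 3 parental lung libraries, both as log2(CPM + 1), with 1 point for each of the 18010 genes tested. The 224 genes at least 4-fold above every lung library are red and the 238 at least 4-fold below are blue, and VIM lies among the grey points because HCC4006P1 comes within 4-fold of PancVB.

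VIM, on chr10:17270240-17279592 of GRCh37, had 2332 CPM in PancVB, 598 in HCC4006P1, 160 in HCC4006P2 and 65.6 in HCC827P. PancVB was above all lung libraries, but the lung libraries themselves were spread, with a standard deviation of 1.59 around the mean on the log2 scale (n = 3), and PancVB lay 3.65 above that mean. The nearest lung library, HCC4006P1, was 1.96 below PancVB, just short of 4-fold. In edgeR the log2 fold change was 2.93 with a standard error of 1.16, an unadjusted p of 0.0502 and an adjusted p of 0.657. Without HCC4006P1 replicate 2 the distance to the nearest lung library grew to 3.85, which is past 4-fold, so the standing of VIM rested on that library.

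The rest of the filament genes showed no shared shift. Of 9 intermediate filament genes other than keratins that were tested, 3 lay above every lung library (33.2% of all genes did), 1 below (23%) and 0 were past 4-fold. LMNB2, a nuclear lamin, had 518 CPM in PancVB and 266, 158 and 179 CPM in HCC4006P1, HCC4006P2 and HCC827P. INA, a neuronal filament, had no count in PancVB and 26.1, 65.0 and 2.54 CPM in those lung libraries.

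E-cadherin and P-cadherin were the epithelial genes furthest from the lung lines. CDH1 (E-cadherin, chr16:68771195-68869440) had 2.12 CPM in PancVB, 485 in HCC4006P1, 482 in HCC4006P2 and 748 in HCC827P, a difference of -7.27 to the nearest lung library. Its neighbour CDH3 (P-cadherin, chr16:68670092-68761371) had 1.15 CPM in PancVB and 247, 454 and 401 CPM in the same lung libraries, a difference of -6.85. Both groups of values were far apart, since the lung libraries differed among themselves by less than 2-fold. The unadjusted edgeR p was 0.000345 for CDH1 and 0.000205 for CDH3, each with an adjusted p of 0.250. EPCAM, an adhesion protein of simple epithelia, was lower to a lesser degree, with 82.4 CPM in PancVB against 369, 344 and 480 CPM and a difference of -2.05.

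CDH2, the gene of N-cadherin, went the other way. It had 312 CPM in PancVB, 55.5 in HCC4006P1, 9.26 in HCC4006P2 and 0.173 in HCC827P, a difference of 2.47 to the nearest lung library. The lung values spanned far more than those of CDH1, and the unadjusted edgeR p was 0.118. CDH5 (VE-cadherin, usually an endothelial gene) had 43.0 CPM in PancVB, no count in HCC4006P1, 0.0735 CPM in HCC4006P2 and 0.0577 CPM in HCC827P, where each of the latter values is a single count. Of 4 endothelial markers tested, 3 lay above every lung library and 0 below, with a median difference of 1.25, which was 1.80 without HCC4006P2. Over all genes tested, 33.2% lay above. The summed level of the markers measured was 49.7 CPM in PancVB and 0.346 to 24.8 CPM in the lung libraries. CDH5 made up most of that sum in PancVB. VWF had 3.31 CPM in PancVB and 0, 0.661 and 0.115 CPM in HCC4006P1, HCC4006P2 and HCC827P, and TEK had 0.690 CPM against 0, 0.0735 and 0.0577 CPM. KDR had 2.44 CPM and lay within the lung values of 0.359, 23.7 and 0 CPM. The part of endothelial transcripts in the CDH5 level was not tested. PECAM1 was not analysed here.

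**Figure D2:**
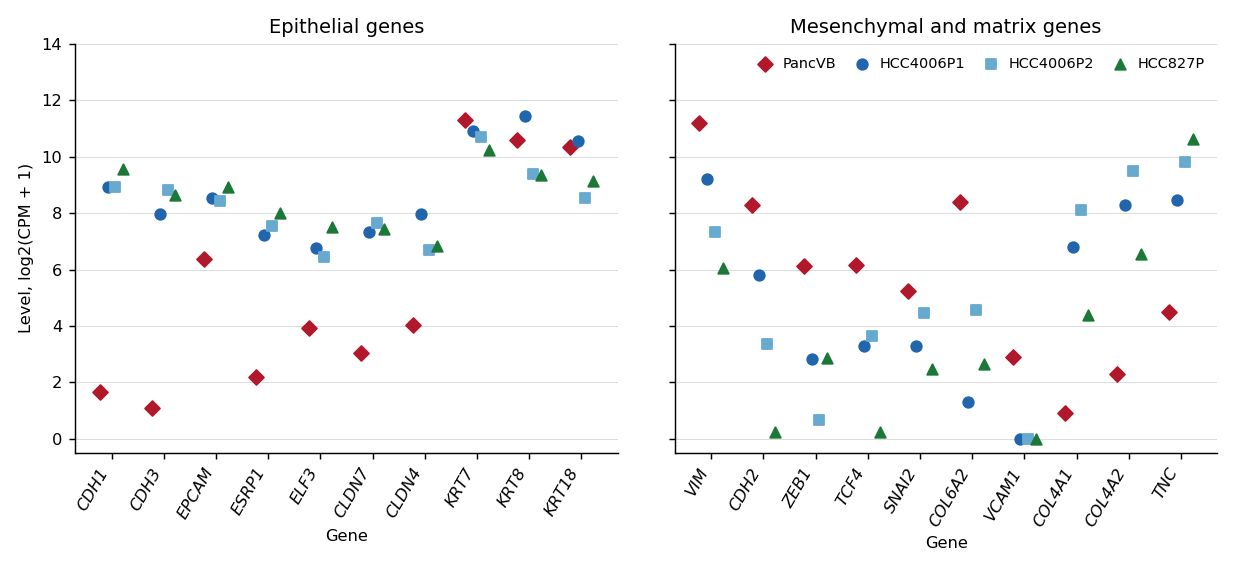
Levels as log2(CPM + 1) of 10 epithelial genes (left) and 10 mesenchymal and matrix genes (right) in the PancVB library (red diamonds) and the 3 lung libraries (blue circles, light blue squares and green triangles), 1 library each. PancVB sits far below all lung libraries for CDH1, CDH3, ESRP1 and CLDN7 and among or beside them for KRT7, KRT8 and KRT18, and above them for VIM, CDH2, ZEB1, TCF4 and COL6A2 but below them for COL4A1, COL4A2 and TNC.

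Among 8 EMT transcription factors tested, 4 lay above every lung library, 2 below, and 2 were higher by 4-fold. Over all genes tested, 33.2% lay above, 23% below, and 1.24% were higher by 4-fold. The list thus showed no shared direction. ZEB1, a repressor of epithelial genes, had 69.3 CPM in PancVB and 6.10, 0.588 and 6.23 CPM in HCC4006P1, HCC4006P2 and HCC827P. TCF4, a basic helix-loop-helix factor, had 71.4 CPM in PancVB and 8.67, 11.5 and 0.173 CPM in these lung libraries. For both, PancVB lay clear of the lung range, by 3.28 for ZEB1 and 2.54 for TCF4. SNAI2 had 36.4 CPM against 8.72, 21.1 and 4.56 CPM and ZEB2 had 5.34 CPM against 0.872, 0.147 and 1.73 CPM, both above the lung range but short of 4-fold. SNAI1 had 1.70 CPM in PancVB against 7.08, 3.31 and 7.15 CPM, and TWIST1 had no count in PancVB and 8.62, 0.220 and 0 CPM in the lung libraries. The unadjusted edgeR p was 0.0215 for ZEB1 and 0.0798 for TCF4.

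The factors that maintain the epithelial state lay mostly below the lung range. Of 13 epithelial regulators tested, 10 lay below every lung library, where 23% of all genes did, and 1 lay above. The median difference of the list was -1.72, and DESeq2 called 6 of its genes lower (3.26% of all genes). ESRP1, a splicing factor that sets epithelial isoforms, had 3.59 CPM in PancVB and 149, 186 and 255 CPM in HCC4006P1, HCC4006P2 and HCC827P. ELF3, an epithelial ETS factor, had 14.3 CPM in PancVB and 107, 87.1 and 180 CPM in these libraries. These genes were past 4-fold, whereas GRHL2, which activates junction genes, was not, with 33.6 CPM against 90.5, 88.4 and 67.7 CPM, and ESRP2 had 34.7 CPM against 66.7, 61.9 and 77.8 CPM. KLF5 was the list's gene above the lung range, with 157 CPM against 88.0, 118 and 122 CPM.

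Of 23 tight junction and desmosome genes tested, 14 lay below every lung library (23% of all genes did) and 5 above (33.2%). The median difference of the list was -1.54, against 0.07 for all genes, and DESeq2 called 11 lower (3.26% of all genes) and 1 higher (0.8%). CLDN7, a claudin of simple epithelia, had 7.14 CPM in PancVB and 159, 202 and 171 CPM in HCC4006P1, HCC4006P2 and HCC827P. CLDN4 had 15.4 CPM in PancVB against 250, 101 and 113 CPM, and MARVELD3, a tight junction membrane protein, had 1.52 CPM against 18.9, 29.1 and 28.8 CPM. PancVB was below all lung values in each of these genes, by 2.64 or more. CLDN2, the claudin that forms cation pores, ran against the list, with 52.2 CPM in PancVB and 0.205, 1.69 and 0.692 CPM in the lung libraries. CLDN1 had 331 CPM against 51.1, 111 and 17.4 CPM, above the lung range but not past 4-fold. The desmosome genes DSP and DSG2 lay within the lung range, with 126 and 338 CPM in PancVB.

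The keratins did not move in 1 direction: of 16 tested, 5 lay above every lung library (33.2% of all genes did), 5 below (23%) and 6 within the range. KRT7 had 2543 CPM in PancVB and 1215 to 1906 CPM in the lung libraries, KRT8 had 1557 CPM against 648 to 2771 CPM, and KRT18 had 1287 CPM against 370 to 1490 CPM. These genes of simple epithelia therefore did not separate PancVB from the lung lines by more than the lung lines' own range, apart from KRT7, which was 1.33-fold above the highest. The 5 below were KRT15, KRT80, KRT19, KRT16 and KRT4, and none of them was past 4-fold. KRT15, a keratin of basal cells, had 5.34 CPM in PancVB and 15.4, 33.1 and 47.0 CPM in the lung libraries, and KRT19 had 677 CPM against 1507, 992 and 708 CPM. The keratins higher by 4-fold were 2, where 1.24% of all genes were. They were KRT17 (13.4 CPM in PancVB, at most 0.173 CPM in the lung libraries) and KRT81 (16.4 CPM, at most 1.25 CPM).

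The E-box CACCTG is a sequence that ZEB1 and SNAI2 are known to bind. RefSeq windows of the 250 bases before a gene start (GRCh38.p14) were searched for CACCTG and for CAGGTG, which is the same motif on the other strand and so counts both strands. Of 35116 such windows, 17.5% held the motif at least once and 0.464% held it 3 times or more. Of 265 windows of genes lower in PancVB, 25.7% held it, and 5 (1.89%) held it 3 times or more, namely those of AP1M2, CLDN7, CRB3, MACC1 and TMEM30B. Of 266 windows of genes higher in PancVB, 18.8% held it and 0 held it 3 times or more. Counted per gene, 35.3% of the lower genes, 27.7% of the higher genes and 21.5% of all genes tested had the motif in a window, so that both directions were above all genes. Windows were found for 173 of 233 symbols of the lower genes and for 159 of 217 of the higher genes. CDH1, CDH3 and EPCAM had no window in the table used. A match is a description of letters, and binding was not measured.

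The windows of 4 of these lower genes, at chr17:7262479-7262728 (minus strand), chr19:6464021-6464270 (plus strand), chr19:10587313-10587562 (minus strand) and chr14:61281339-61281588 (minus strand), are shown with the window of VIM at chr10:17227991-17228240 (plus strand), 5′ to 3′ and ending at the base before the gene start, to show the motif, in capitals, in genes that were lower in PancVB and its absence from that of VIM. RefSeq gives CLDN7 another window, in which the motif was not found. The lower genes shown were picked for windows with 3 matches or more. Other lower genes, such as SCEL, NOTCH3 and TNC, had no match. ZEB1, a higher gene, had up to 2 matches in a window, and VIM was not past 4-fold.
CLDN7: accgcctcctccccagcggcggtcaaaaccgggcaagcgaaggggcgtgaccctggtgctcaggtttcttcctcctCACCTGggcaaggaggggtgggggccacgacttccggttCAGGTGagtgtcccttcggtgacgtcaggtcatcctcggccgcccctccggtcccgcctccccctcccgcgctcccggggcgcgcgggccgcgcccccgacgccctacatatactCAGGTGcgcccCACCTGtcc
CRB3: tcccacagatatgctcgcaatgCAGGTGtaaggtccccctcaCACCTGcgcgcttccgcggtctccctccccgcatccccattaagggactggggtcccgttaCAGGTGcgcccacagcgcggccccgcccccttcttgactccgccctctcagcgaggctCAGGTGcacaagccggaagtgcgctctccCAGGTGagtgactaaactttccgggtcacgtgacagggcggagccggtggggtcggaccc
AP1M2: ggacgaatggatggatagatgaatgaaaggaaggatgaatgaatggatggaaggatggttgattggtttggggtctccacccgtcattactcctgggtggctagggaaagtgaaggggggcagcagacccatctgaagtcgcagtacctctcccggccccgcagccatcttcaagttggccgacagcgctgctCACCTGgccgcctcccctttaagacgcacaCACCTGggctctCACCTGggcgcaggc
TMEM30B: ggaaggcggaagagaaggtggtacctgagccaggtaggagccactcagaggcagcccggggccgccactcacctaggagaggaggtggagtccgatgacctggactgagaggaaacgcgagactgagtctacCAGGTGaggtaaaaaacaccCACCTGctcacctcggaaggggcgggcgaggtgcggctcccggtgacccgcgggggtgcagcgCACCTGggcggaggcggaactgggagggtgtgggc
VIM: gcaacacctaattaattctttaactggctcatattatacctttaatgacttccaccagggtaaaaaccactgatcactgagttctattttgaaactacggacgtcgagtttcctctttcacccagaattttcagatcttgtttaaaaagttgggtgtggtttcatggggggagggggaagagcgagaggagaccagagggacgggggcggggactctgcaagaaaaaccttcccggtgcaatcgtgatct
CRB3, an apical polarity protein, had 1.10 CPM in PancVB and 11.9, 21.2 and 12.5 CPM in HCC4006P1, HCC4006P2 and HCC827P. AP1M2, an adaptor subunit for sorting to the basolateral membrane, had 0.737 CPM in PancVB and 92.2, 116 and 58.4 CPM in these libraries. TMEM30B, a subunit of phospholipid flippases, had 1.75 CPM in PancVB and 76.4, 139 and 70.7 CPM. All were therefore more than 4-fold below the lowest lung library, as was CLDN7. CLDN4 and VIM, with 0 matches each in their windows, were on opposite sides of the lung range.

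Among 32 mesenchymal genes of the study's EMT signature that were tested, 13 lay above every lung library (33.2% of all genes did) and 7 below (23%). Of the 32 genes, 5 were higher by 4-fold (1.24% of all genes were) and 2 lower (1.32%). Their median difference was -0.01, against -0.63 for the 13 epithelial genes of the signature, of which 8 lay below every lung library. The mesenchymal median was 0.24 without HCC4006P2 and 0.20 without HCC827P. The signature is the study's own, so its counts are no independent evidence of a direction. Its 5 higher genes were CDH2, ZEB1, COL6A2, COL12A1 and VCAM1. COL6A2, a chain of the beaded filament collagen VI, had 332 CPM in PancVB and 1.49, 22.6 and 5.31 CPM in HCC4006P1, HCC4006P2 and HCC827P. Of the other collagen VI chains, looked up after the values of COL6A2 were seen, COL6A1 had 521 CPM against 1.85, 26.01 and 11.1 CPM, and COL6A3 had 10.9 CPM, within the lung values of 11.1, 4.63 and 4.73 CPM. COL12A1, a fibril-associated collagen, had 71.9 CPM against 13.4, 16.3 and 1.10 CPM. VCAM1, an adhesion molecule for leukocytes, had 6.44 CPM in PancVB and no count in any lung library, which makes it at least 29.2-fold higher against 3 counts in the shallowest of them.

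The 2 lower genes were the basement membrane collagens COL4A1 and COL4A2, a head-to-head pair on chromosome 13. COL4A1 (chr13:110801310-110959504) had 0.875 CPM in PancVB and 112, 277 and 19.8 CPM in HCC4006P1, HCC4006P2 and HCC827P. COL4A2 (chr13:110958159-111165556) had 3.87 CPM in PancVB and 313, 728 and 93.8 CPM in the lung libraries. PancVB was thus low in these chains while it was high in COL6A1 and COL6A2. TNC (tenascin C), a matricellular protein, followed the collagen IV genes with 21.7 CPM against 351, 906 and 1579 CPM, and TGFBI, an integrin ligand, had 187 CPM against 914, 1817 and 2201 CPM. Of 17 matrix and matricellular genes tested, 4 lay above every lung library (33.2% of all genes did) and 6 below (23%). ITGB6, the epithelial partner of the alpha v integrin chain, had 2.58 CPM in PancVB against 29.6, 449 and 192 CPM and was the one integrin of 11 tested past 4-fold.

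Markers of other cell types were checked beside the matrix genes. Of 10 fibroblast markers, DCN had no count in any of the 4 libraries, COL3A1, LUM, PDGFRB, THY1 and FAP were at or under 0.184 CPM in PancVB, and the summed level of the list was 8.70 CPM in PancVB and 8.36 to 32.4 CPM in the lung libraries. The summed level of 8 immune markers was 14.2 CPM in PancVB and 73.2 to 144 CPM in the lung libraries, with CD3E and MS4A1 at no count in all of them and PTPRC at 0.046 CPM in PancVB. CD68, a lysosomal protein that many carcinoma lines also express, made up most of that sum and was lower in PancVB, with 12.3 CPM against 94.0, 55.6 and 133 CPM.

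**Figure D3:**
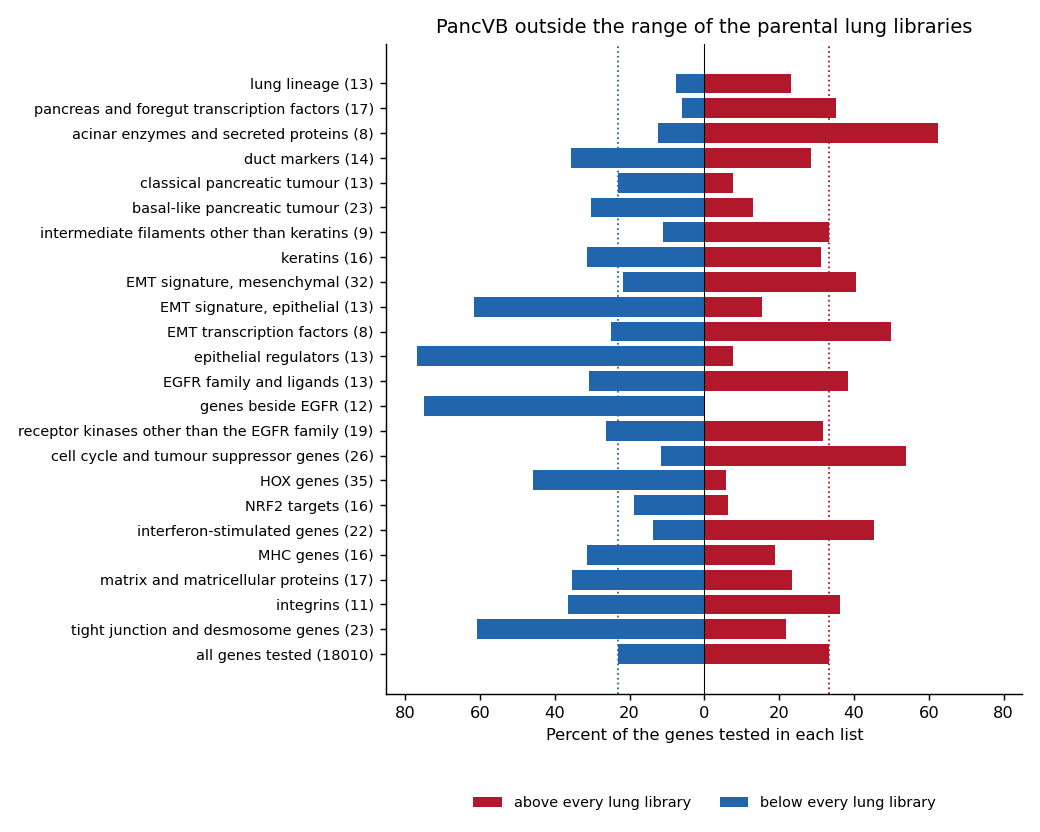
Percent of the tested genes of each list for which PancVB lay above every lung library (red, to the right) or below every lung library (blue, to the left), with the number tested in parentheses. The dotted lines mark the percentages over all 18010 genes, 33.2% above and 23% below, and the blue bars of the epithelial regulators, the genes beside EGFR, the epithelial signature and the tight junction and desmosome genes reach furthest. Lists with under 8 genes tested are not drawn.

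The pancreatic label of PancVB was checked against organ markers, and these did not set it apart clearly. PDX1, a regulator of pancreas formation, had 0.184 CPM in PancVB and 0.0513, 0.367 and 0.115 CPM in HCC4006P1, HCC4006P2 and HCC827P, so that all were near or under the detection limit. Of 24 acinar genes, 12 had no count in PancVB, and the highest, PRSS3, had 11.5 CPM, within the lung range of 1.44 to 24.1 CPM. Of the 8 acinar genes tested, 5 lay above every lung library, 1 below and 0 were past 4-fold. Their median difference was 0.55. Of 17 pancreas and foregut transcription factors tested, 6 lay above every lung library and 1 below. Over all genes tested, 33.2% lay above and 23% below. GATA4, a foregut factor, did separate the lines: it had 64.5 CPM in PancVB and no count in any lung library, at least 293-fold higher. ONECUT3 had 12.5 CPM in PancVB and at most 0.220 CPM in the lung libraries. SOX9, a duct factor, had 94.3 CPM in PancVB and lay within the lung values of 132, 112 and 9.06 CPM.

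Mucins and secreted surface proteins split. MUC5AC, a gel-forming mucin, had 60.7 CPM in PancVB and 0.0513, 1.40 and 0.519 CPM in the lung libraries. MUC1, a membrane mucin, had 3.73 CPM in PancVB and 253, 285 and 34.9 CPM in the lung libraries. A pair of markers that expression studies of pancreatic tumours call classical were lower, past 4-fold: AGR2, a disulfide isomerase, had 0.414 CPM in PancVB against 40.1, 701 and 33.5 CPM, and CEACAM6 had no count in PancVB against 58.6, 7405 and 37.0 CPM, at least 268-fold lower. Of 13 classical genes tested, 1 lay above and 3 below every lung library, and of 23 basal-like genes tested, 3 lay above and 7 below. Among all genes, 33.2% lay above and 23% below.

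Lung markers were not uniform within the lung lines. NKX2-1, the lung lineage factor, had no count in PancVB and none in HCC4006P1, but 113 CPM in HCC4006P2 and 56.0 CPM in HCC827P. NAPSA, an aspartic protease of alveolar cells, had 0.506 CPM in PancVB and 0.0513, 143 and 35.4 CPM in HCC4006P1, HCC4006P2 and HCC827P. HCC4006P1 therefore resembled PancVB in these markers, and none of 13 lung lineage genes tested was past 4-fold.

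The 15 protein-coding genes furthest above the lung lines were GFRA1, ADAMTS12, PCDH19, CCND2, FLI1, DCDC2, LTB, SLC6A15, GATA4, EPHA7, CXCL9, ESM1, HHIP, CDH5 and ARMH4, chosen after their values were seen because 0 genes passed edgeR's adjusted p. They had 43.0 to 376 CPM in PancVB and at most 0.882 CPM in any lung library. GFRA1, the coreceptor of glial cell line-derived neurotrophic factor, led with 376 CPM in PancVB and 0.462, 0.367 and 0.519 CPM in HCC4006P1, HCC4006P2 and HCC827P. Its log2 fold change in edgeR was 9.54 with a standard error of 0.54 and an adjusted p of 0.107. ADAMTS12, a secreted metalloprotease, had 201 CPM in PancVB and FLI1, an ETS factor of blood and vessel cells, 125 CPM, and neither had a count in any lung library. They were at least 912-fold and at least 567-fold higher. Of all 224 higher genes, 17 had no count in any lung library.

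The same set held signalling and cell cycle genes. CCND2 (cyclin D2) had 203 CPM in PancVB, no count in HCC4006P1, 0.588 CPM in HCC4006P2 and 0.173 CPM in HCC827P, whereas CCND1 (cyclin D1) was alike, with 825 CPM in PancVB and 772, 760 and 435 CPM. HHIP, a decoy receptor for hedgehog ligands, had 78.2 CPM in PancVB and 0.410, 0.808 and 0.288 CPM in the lung libraries. CXCL9, an interferon-induced chemokine, had 56.3 CPM in PancVB and no count in the lung libraries, at least 255-fold higher.

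The 15 genes furthest below the lung lines were CDH1, CDH3, SPOCK1, HS6ST2, ZNF518B, TC2N, LDOC1, SCEL, GALNT3, CEACAM6, CRABP2, AP1M2, ESRP1, NOTCH3 and TMEM30B. They had at most 3.59 CPM in PancVB and at least 32.0 CPM in every lung library. SPOCK1, a matrix proteoglycan, had 0.184 CPM in PancVB and 124, 115 and 89.0 CPM in HCC4006P1, HCC4006P2 and HCC827P. ZNF518B, a zinc finger gene, had no count in PancVB and 65.3, 69.4 and 74.6 CPM in the lung libraries, at least 473-fold lower. NOTCH3, a Notch receptor, had 0.138 CPM in PancVB and 49.2, 96.3 and 32.0 CPM. Of all 238 lower genes, 28 had no count in PancVB, and 12 of these had none in its derivatives PancB1Q and PancB1V either.

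Receptors and growth control genes were checked because the lung lines depend on mutant EGFR. EGFR had 547 CPM in PancVB, 1036 in HCC4006P1, 962 in HCC4006P2 and 7113 in HCC827P. PancVB was the lowest, but by less than 2-fold against the HCC4006 libraries, and the unadjusted edgeR p was 0.173. Of 12 genes tested beside EGFR on chromosome 7, 9 lay below every lung library, where 23% of all genes did, and none was past 4-fold. The summed level of the 13 measured was 1101 CPM in PancVB and 2097 to 9142 CPM in the lung libraries. ERBB3, a partner receptor of EGFR, had 18.6 CPM in PancVB against 82.0, 145 and 85.9 CPM, and IGF1R had 14.2 CPM against 65.2, 101 and 80.7 CPM, both past 4-fold. Of 13 EGFR family and ligand genes tested, 5 lay above every lung library and 4 below, with a median difference of -0.05. Besides ERBB3 on the lower side, 1 gene of that list was higher by 4-fold. AXL, a receptor tied to EMT in many lines, had 1232 CPM in PancVB and 834, 48.8 and 2.31 CPM, so that HCC4006P1 came close to PancVB.

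TGFBR2, the type II receptor of TGF-beta, was higher by 2.56 than the nearest lung library, with 742 CPM in PancVB and 84.8, 111 and 125 CPM in HCC4006P1, HCC4006P2 and HCC827P. The lung values were close together, and the edgeR log2 fold change was 2.67 with a standard error of 0.49 and an adjusted p of 0.348. SMAD4, the shared SMAD of the TGF-beta pathway, had 15.5 CPM in PancVB against 51.2, 56.1 and 48.0 CPM, a difference of -1.57 to the nearest lung library. CDKN2A, the gene of p16, had no count in PancVB or in either HCC4006 library, and 107 CPM in HCC827P. MTAP, its neighbour, had 140 CPM in PancVB, 7.39 in HCC4006P1, 6.98 in HCC4006P2 and 328 in HCC827P. PancVB and the HCC4006 lines thus shared the lack of CDKN2A counts but not the low MTAP. Of 26 cell cycle and tumour suppressor genes tested, 14 lay above every lung library (33.2% of all genes did) and 3 below (23%). CCND2 and TGFBR2 were the 2 higher by 4-fold (1.24% of all genes were).

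Among 22 interferon-stimulated genes, 10 lay above every lung library (33.2% of all genes did), 3 below (23%), and the median difference was 1.23. That median rested on single libraries, with 0.70 without HCC827P and 1.82 without HCC4006P2. The summed level of the list was 1580 CPM in PancVB, within the 701 to 1605 CPM of the lung libraries. OASL, an oligoadenylate synthetase-like protein, was the one past 4-fold, with 121 CPM in PancVB and 8.36, 7.86 and 1.50 CPM in HCC4006P1, HCC4006P2 and HCC827P. IFIT1 had 84.2 CPM against 19.7, 36.3 and 5.77 CPM, while MX1 had 52.8 CPM and HCC4006P2 the highest level, 77.7 CPM. IRF7, a factor of the same response, had 1.47 CPM in PancVB against 11.6, 11.9 and 8.83 CPM.

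HOX genes, which record body position, were largely lower or within the lung range. Of 35 tested, 16 lay below every lung library (23% of all genes did) and 2 above (33.2%). Their median difference was -0.96, and 3 were lower by 4-fold (1.32% of all genes were). HOXC10 had 0.138 CPM in PancVB and 28.9, 40.4 and 9.34 CPM in HCC4006P1, HCC4006P2 and HCC827P. HOXB9 was one of the genes above the lung range, with 49.0 CPM against 14.8, 20.1 and 11.2 CPM. HOXB7 was not analysed here.

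Of 16 NRF2 targets tested, 12 lay within the lung range. Of 16 MHC genes, 8 lay within it, 3 above and 5 below. Of 3 cancer-testis genes with enough counts, 1 lay below, namely PRAME with 1.10 CPM against 20.1, 30.5 and 4.96 CPM. Of 19 receptor kinases outside the EGFR family, 6 lay above every lung library and 5 below. Among all genes tested, 33.2% lay above and 23% below. PancVB also differed along chromosomes: over 693 expressed genes of chromosome 3, the median difference was 0.60 to HCC4006P1, 0.63 to HCC4006P2 and 0.61 to HCC827P, and 418 of them lay above every lung library against 71 below. Chromosome 8 had medians of 0.84, 0.41 and 0.37, with 201 of 417 genes above every lung library and 64 below. On chromosome 16, the medians were -0.41, -0.65 and -0.09, and 212 of 529 genes lay below every lung library against 52 above. Chromosome X had medians of -0.41, -0.85 and -0.29, with 180 of 389 genes below and 43 above. Over all 12032 genes with at least 5 CPM in PancVB or in the lung mean, 3935 lay above and 3114 below. Chromosome 3 was alike against all 3 lung libraries, while chromosome 15 ranged from -0.68 to HCC4006P1 to 0.08 to HCC827P.

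**Figure D4:**
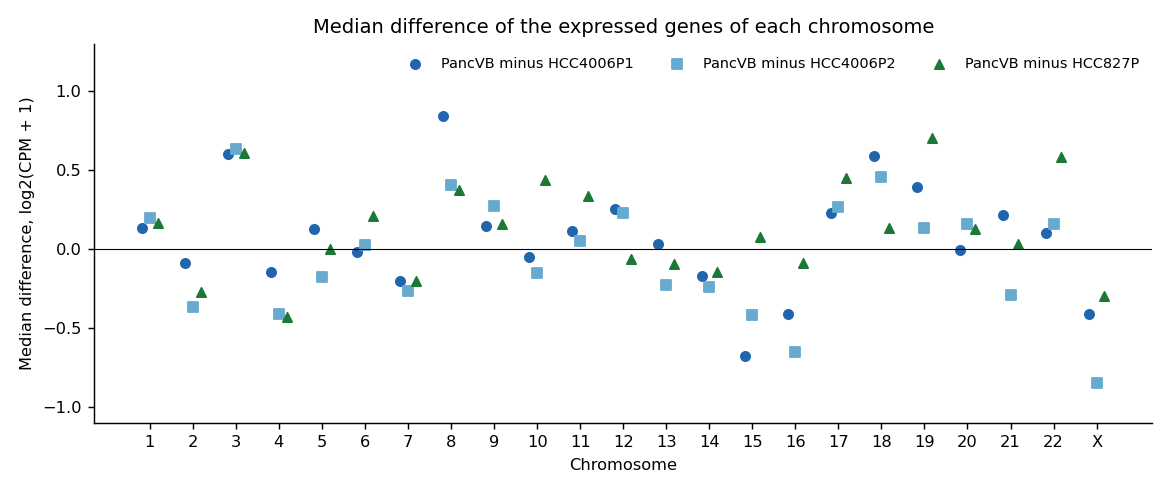
Median difference of log2(CPM + 1) between PancVB and each of the 3 lung libraries over the expressed genes of each chromosome, 1 point per lung library. The points of chromosome 3 lie together between 0.60 and 0.63, and those of chromosomes 15 and 16 lie apart.

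To see which markers of PancVB held in other libraries, its 5-fluorouracil-resistant derivatives PancB1Q and PancB1V were compared with the resistant lung lines HCC4006ER (erlotinib, 2 libraries), HCC4006GR and HCC827GR (gefitinib, 1 library each). These 6 libraries are not shared with the first comparison, but the lines descend from the same parents and were selected with drug. Both derivatives lay 4-fold above every resistant lung library for 138 genes (0.804% of 17171 tested) and 4-fold below for 163 (0.949%). Of the 224 genes higher in PancVB, 52 were also higher here, which is 23.2% of the former and 37.7% of the latter list. Of the 238 lower genes, 58 were also lower, which is 24.4% and 35.6% of the lists.

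Across all genes edgeR called 666 genes higher (3.88%) and 623 lower (3.63%) in this second comparison, among them 60 of the 224 higher and 70 of the 238 lower genes of PancVB. These calls depended on single libraries: without PancB1Q 1 gene was called, without PancB1V 0, without either HCC4006ER library 40, and without HCC827GR 4348. Where 1 pancreatic library is left, it is assumed to vary like the lung lines. The fit took the HCC4006ER libraries, replicates of a single line, as separate members of the lung group. PancB1Q and PancB1V both descend from PancVB. The adjusted p below therefore do not rest on independent lines. PCDH19, a protocadherin, had 199 CPM in PancVB, 269 in PancB1Q and 209 in PancB1V, and at most 0.346 CPM in any parental lung library. The resistant lung libraries had at most 0.0662 CPM, and edgeR gave an adjusted p of 0.0020. HHIP had 55.8 and 41.7 CPM in the derivatives and 0.360 to 0.794 CPM in the resistant lung libraries, a log2 fold change of 6.42 with a standard error of 0.42 and an adjusted edgeR p of 0.0088. CCND2, DCDC2, SLC6A15 and GATA4 were called in the same direction, with adjusted edgeR p of 0.0088, 0.0137, 0.0248 and 0.0099. In all, 6 of the 15 genes furthest above the lung lines were called in these libraries.

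On the lower side, 3 of 15 were called. SPOCK1 had no count in either derivative and 212 to 848 CPM in the resistant lung libraries, with an adjusted edgeR p of 0.0143. ZNF518B and LDOC1 had no count in either derivative, and their adjusted edgeR p were 0.0041 and 0.0088. IGF1R and TGFBI were lower too, with 9.24 and 11.8 CPM against 93.2 to 246 CPM for IGF1R. Its log2 fold change was -4.07 with a standard error of 0.47 and an adjusted edgeR p of 0.0150.

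The separation of CDH1 and CLDN7 was smaller in these libraries. Of 23 tight junction and desmosome genes tested, 2 were higher by 4-fold in the derivatives, namely the desmosome genes DSC3 and PKP2, and 0 were lower. PKP2 had 139 and 127 CPM in the derivatives and 3.86 to 18.1 CPM in the resistant lung libraries. CDH1 was as low in the derivatives as in PancVB, with 3.12 CPM in PancB1Q and 0.805 CPM in PancB1V, but it had 8.60 and 10.4 CPM in the HCC4006ER libraries, 53.3 CPM in HCC827GR and 499 CPM in HCC4006GR. CLDN7 had 1.82 and 3.78 CPM in the derivatives, 0.961 and 1.03 CPM in HCC4006ER, 10.9 CPM in HCC827GR and 176 CPM in HCC4006GR. HCC4006GR was thus close to its parental libraries in both genes, and the HCC4006ER libraries were far below theirs. VIM had 2077 and 2442 CPM in the derivatives against 604 to 1516 CPM in the resistant lung libraries, within 2-fold of the highest of them. In edgeR the adjusted p was 0.148 for CDH1, 0.323 for CLDN7 and 0.168 for VIM. COL6A2 had 276 and 315 CPM in the derivatives, within the 48.3 to 406 CPM of the resistant lung libraries. ZEB1 had 56.6 and 54.0 CPM against 13.8 to 44.1 CPM, and TCF4 had 58.7 and 42.4 CPM against 0.643 to 30.5 CPM. CDH2 had 363 and 317 CPM against 14.8 to 129 CPM. None of these genes was past 4-fold here. GFRA1 and ADAMTS12, absent or nearly absent from the parental lung lines, had 254 and 269 CPM and 150 and 152 CPM in the HCC4006ER libraries, above both derivatives.

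Not all markers of PancVB were found in its own derivatives. Of the 224 higher genes, 15 were at least 10-fold lower in both PancB1Q and PancB1V than in PancVB, on CPM + 1. VIPR1, a receptor for vasoactive intestinal peptide, had 242 CPM in PancVB, none in PancB1Q and 0.0403 CPM in PancB1V. CXCL9 had no count in either derivative, EPHA7 had 0.595 and 0.846 CPM against 77.7 CPM in PancVB, MUC5AC had 1.93 and 0.805 CPM, CLDN2 had 0.175 and 0.322 CPM, and OASL had 3.96 and 2.62 CPM. Both derivatives were thus far below PancVB for these genes. In the reverse direction, 14 of the 238 lower genes were at least 10-fold higher in both derivatives, among them COL4A1 with 226 and 193 CPM, COL4A2 with 332 and 292 CPM and TNC with 299 and 352 CPM.

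**Figure D5:**
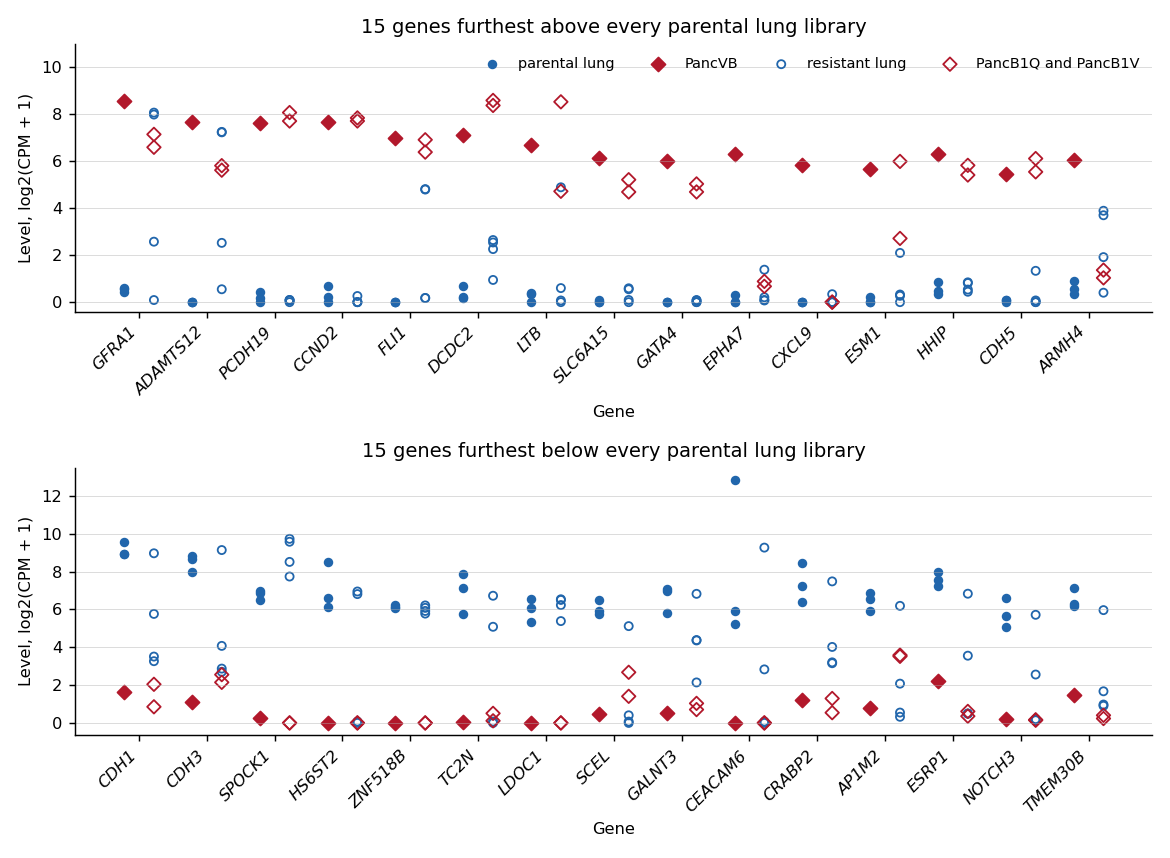
Levels as log2(CPM + 1) of the 15 genes furthest above (top) and the 15 furthest below (bottom) the parental lung libraries, with PancVB (filled red diamonds) and 3 parental lung libraries (filled blue circles) on the left of each gene and PancB1Q and PancB1V (open red diamonds) and 4 resistant lung libraries (open blue circles) on the right. PCDH19, CCND2, GATA4 and HHIP stay high and SPOCK1, ZNF518B and LDOC1 stay low on the right, while CXCL9 and EPHA7 do not, and GFRA1 and ADAMTS12 are also high in 2 resistant lung libraries.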

How the data were processed

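Each of the 21 libraries is a table of raw counts per Ensembl gene, which the authors deposited after alignment to hg19. The submitters' processing notes name Bowtie, TopHat, SAMtools and HTSeq. The strand setting of counting is not given in the sources used here. Counts on genes ranged from 13608332 to 21723626 in the 4 libraries compared. CPM was taken per total on genes, and log2(CPM + 1) was used for differences. Genes were filtered with filterByExpr and fitted with edgeR 4.0.16 (TMM, quasi-likelihood, R 4.3.3, 1 library against 3, two-sided, Benjamini-Hochberg), and with DESeq2 1.42.0 as an alternative. The scripts were tested on simulated data: of 200 genes changed 16-fold, edgeR recovered 12.5% in the parental comparison. Of 200 genes changed 4-fold it recovered 0%, so its lack of calls there cannot decide on differences of that size. The labels do not say that libraries are separate cultures. In the parental comparison the p-values rest on the spread between the lung libraries, which come from HCC4006 and HCC827. PancVB is assumed there to vary like them. In the second comparison the HCC4006ER libraries are replicates of a single line, and their spread may be technical.

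The comparison, its members and the gene lists were chosen with earlier results of these data known. The rule for named genes took the up to 4 members per list and direction furthest past 4-fold that had at least 10 CPM in a library, a set of defining members (VIM, CDH1, CDH2, EPCAM, NKX2-1, PDX1, EGFR and CDKN2A) whatever their value, and the 15 genes on each side with the largest difference among protein-coding genes with an adjusted p under 0.05 in edgeR. None passed that p, so the 15 furthest genes on each side, and other genes given with values, were chosen after their values were seen. Alternatives were other pseudocounts, scalings, filters and thresholds, and leaving out each library.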

Additional observations from a re-analysis of the deposited data

How the results depend on the processing

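No paired analysis was possible because PancVB has 1 library and shares no replicate pairing with the lung libraries. For the parental comparison, where edgeR called 0 genes, DESeq2 called 731, a test of every gene with a count called 34, adding HCC4006P1 replicate 1 called 26 over the genes that it covers, and leaving out 1 lung library gave 0 to 13. For the derived lines, where edgeR called 1289, DESeq2 called 4068, a test of every gene with a count called 712, and leaving out 1 library gave 0 to 4348. A pseudocount of 0.1 CPM gave 418 genes higher and 504 lower, a 2-fold limit 917 and 689, and an 8-fold limit 99 and 93. Leaving out 1 lung library gave 316 to 326 higher and 285 to 556 lower. In the derived lines a pseudocount of 0.1 CPM, chosen after seeing the data, gave 232 higher and 380 lower. The median of the mesenchymal signature ranged from 0.0092 to 0.24 when 1 lung library was left out, and that of the epithelial signature from -0.85 to -0.67. The causes were not tested. Among the 65 named genes, VIM and NKX2-1 passed 4-fold without HCC4006P1 replicate 2. With few counts, a difference of a low gene was limited by the floor of 3 counts.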
